A study of Mus musculus with 23 samples.

Results

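The long intergenic noncoding RNA (lincRNA) probes of the array were 16251 of its 59305 non-control spots (27.4%). They were chosen by design and not by signal: every non-control spot whose probe name starts with A_30_P was taken. Each probe is 60 bases long, and the array file gives each one a position on mouse build mm9 (NCBI37), except 118 probes without a position. The probes carried 4622 transcript identifiers, called loci here, of which 2324 lay on the forward and 2298 on the reverse strand. A locus held between 1 and 10 probes (median 3) over an interval of between 62 and 7128487 bp (median 10676 bp). Loci overlapped one another, so that they merged into 3370 intervals when strands were kept apart and 2231 when they were not. They lay on 20 chromosomes, 180 of them on X and 0 on Y, and 12 were named after a transcript, among them XIST, NEAT1, HOTAIR and H19. After the low-intensity filter described with the processing, 11452 probes (70.5%) and 4167 loci (90.2%) were tested. Of the other 43054 spots, 35622 (82.7%) passed.

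The 23 one-colour arrays came from female C57BL/6 mice that were 5 weeks old at the start and were held for 8 weeks on one of 2 diets. Lean mice received standard chow (SC), and obese mice chose freely between SC and a chocolate mixture (CM); both then went through an 11-day test battery, in which SC mice also met CM for short periods. Frontal cortex (FC) was measured in 4 SC and 3 CM mice, and striatum (ST) and hypothalamus (HT) in 4 mice of each diet, with the same mice giving all regions apart from 1 CM mouse whose FC array was not analysed here. The HT arrays are labelled as a thalamic region, while the protocol and the study name the hypothalamus, and marker genes of both tissues were highest there (12 of 14 hypothalamic and 6 of 6 thalamic markers). Mice are named L (lean, SC) or O (obese, CM) with their number. In tissue, fewer cells of a type and less RNA per cell cannot be told apart.

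LincRNAs are transcribed from outside protein-coding genes, are often spliced and carry a poly(A) tail, and lack a long open reading frame. In brain they are known for expression that is restricted to regions and cell types and for lying beside genes of developmental transcription factors. Some act in the nucleus on chromatin (XIST, KCNQ1ot1) or in nuclear bodies (NEAT1, and NEAT2 in speckles), and for most no function is known.

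The sequences below belong to the loci on which the comparisons turned. They are the array's own probes, written 5′ to 3′ in the sense of the transcript, and capitals mark AATAAA or ATTAAA, the usual signals for poly(A) addition.
The 3 probes of the locus at chr8:83210957-83219451, forward strand, at Frem3, all gave higher values in HT.
A_30_P01032677: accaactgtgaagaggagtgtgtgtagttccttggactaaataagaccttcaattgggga
A_30_P01027176: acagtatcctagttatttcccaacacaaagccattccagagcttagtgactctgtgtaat
A_30_P01018173: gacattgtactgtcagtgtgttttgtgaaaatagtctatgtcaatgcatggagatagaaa
The 3 probes of the locus at chr2:33500594-33501874, forward strand, near Lmx1b, were also highest in HT.
A_30_P01026088: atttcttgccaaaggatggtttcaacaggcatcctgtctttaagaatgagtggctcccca
A_30_P01032763: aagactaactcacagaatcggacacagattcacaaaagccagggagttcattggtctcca
A_30_P01026417: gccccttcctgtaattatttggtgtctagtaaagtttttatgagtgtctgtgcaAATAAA
The loci at chr3:137742666-137744470 and chr3:137736327-137752677 overlap on the forward strand, and the probes shown, the first pair from the one and the second pair from the other, were highest in FC. The last of them shares sequence with the first and with the second.
A_30_P01019334: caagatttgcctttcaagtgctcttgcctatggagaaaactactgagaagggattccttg
A_30_P01024709: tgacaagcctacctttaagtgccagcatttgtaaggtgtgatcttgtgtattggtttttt
A_30_P01025862: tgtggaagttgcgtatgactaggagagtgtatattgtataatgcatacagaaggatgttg
A_30_P01032042: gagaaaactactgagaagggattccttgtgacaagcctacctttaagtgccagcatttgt
The locus at chr8:48480224-48480698, reverse strand, was highest in ST.
A_30_P01019105: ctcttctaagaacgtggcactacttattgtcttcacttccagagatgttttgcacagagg
The 4 probes of BRN1-A, chr1:42705044-42751670, reverse strand, tile the end of a noncoding transcript beside Pou3f3 without a gap of more than a few bases.
A_30_P01024432: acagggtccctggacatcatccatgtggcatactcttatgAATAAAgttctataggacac
A_30_P01024930: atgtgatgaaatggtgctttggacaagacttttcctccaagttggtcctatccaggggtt
A_30_P01028570: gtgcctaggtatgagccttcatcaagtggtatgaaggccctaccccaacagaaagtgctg
A_30_P01032812: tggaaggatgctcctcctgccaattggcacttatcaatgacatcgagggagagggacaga
For the diets, the probes of the loci described first below for a rise and a fall in FC, a fall in ST and a fall in HT follow, in that order.
A_30_P01018229: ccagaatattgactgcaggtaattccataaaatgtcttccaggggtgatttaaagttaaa
A_30_P01022510: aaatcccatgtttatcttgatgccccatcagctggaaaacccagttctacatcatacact
A_30_P01024622: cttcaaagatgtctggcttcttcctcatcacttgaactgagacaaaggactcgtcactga
A_30_P01033077: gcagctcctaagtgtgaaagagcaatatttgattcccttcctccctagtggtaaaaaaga

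AATAAA, searched in the sense of the probe, occurred in 3.92% of lincRNA probes and 11.9% of the other probes of the array, and ATTAAA in 2.47% and 4.3%. On the opposite strand TTTATT was found in 3.03% and 4.01%, and TTTAAT in 2.23% and 2.72%. The 2 hexamers can overlap in one probe and were counted separately. Median GC content was 45% for lincRNA probes and 41.7% for the others, and within the lincRNA probes it was 45% for those that passed the filter and 41.7% for those that did not.

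LincRNA probes were detected less often than the rest of the array. Of the 16251 probes, 5937 (36.5%) were well above background on all 23 arrays by the scanner's flag and 4725 (29.1%) on none, against 64% and 16.5% of the other spots. Per array, between 42.5% and 58.8% (median 49.7%) of lincRNA probes were well above background, and between 68.6% and 76.1% of the other spots. No lincRNA probe was flagged as saturated on any array. By group median, CM FC arrays held the highest share (58.4%, range 56.5 to 58.8%) and SC FC arrays the lowest (46.1%, range 42.5 to 48.6%), and these groups did not overlap each other, while each overlapped other groups. The share also moved with the slide, the glass carrier that holds 8 arrays: it was 42.5 to 49.7% on slide 1, 46.5 to 54.7% on slide 2 and 50.9 to 58.8% on slide 3. Each CM group filled part of a single slide (FC slide 3, ST slide 1, HT slide 2), while SC arrays of every region were spread over at least 2 slides, with 3 of the 4 SC FC arrays on slide 1 and the other one on slide 2.

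**Figure D1:**
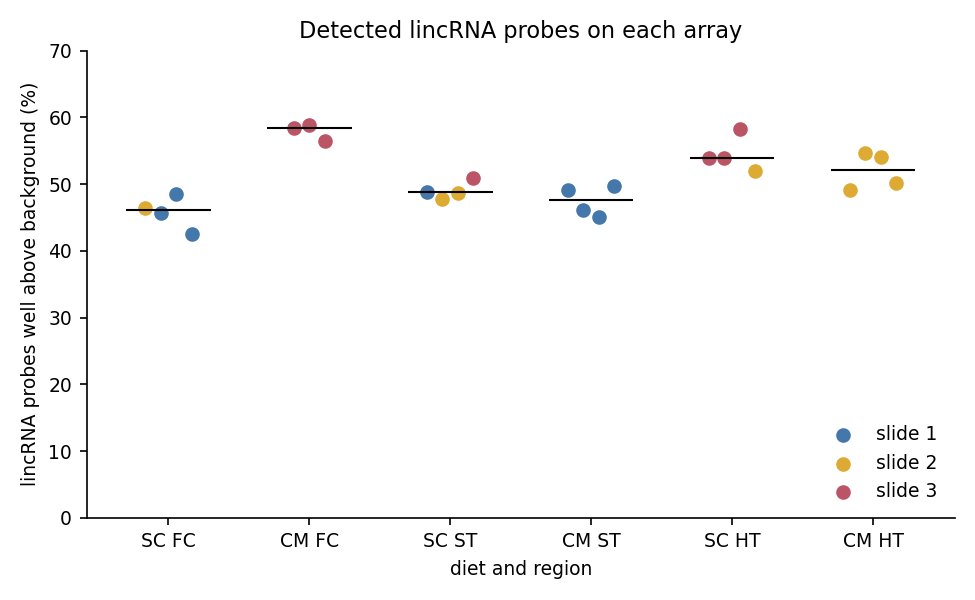
Share of the 16251 lincRNA probes well above background (y axis, percent) on each of the 23 arrays, by diet and region, coloured by slide; black lines are group medians. CM FC arrays, all on slide 3, lie at 56.5 to 58.8%, and SC FC arrays at 42.5 to 48.6%.

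Some ST arrays carried genes of other tissue. The SC array L52 had hypothalamic peptide genes (Hcrt 15.45, Pmch 14.4 and Oxt 14.32 on the log2 scale). Slc17a7, a cortical glutamate transporter, stood at 11.68 in L54 and 12.05 in L58. The CM array O58 had choroid plexus genes (Ttr 18.21, Kl 11.69). All 9 striatal markers tested were highest in ST and all 7 cortical markers in FC, and the results that use ST are also given without these 4 arrays. The ST arrays kept were not free of such genes. L56 had the thalamic markers Prkcd at 11.22 and Tcf7l2 at 8.92, and O54 and O56 had Slc17a7 at 10.56 and 10.36. O52 had Pmch at 11.62, Hcrt at 10.92 and Ttr at 13.61, and O56 also had Oxt at 11.5 and Ttr at 13.91.

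LincRNA loci differed between brain regions, but a smaller share of them passed the test than of all identifiers. A locus was called when its log2 means differed by at least 1 (2-fold) at an adjusted p under 0.01 in limma, with Benjamini-Hochberg adjustment over all 31395 identifiers tested. Between ST and FC 44 loci were called (1.06%; 28 higher and 16 lower in ST), where 3.82% of all identifiers were called. Between HT and FC 108 loci were called (2.59%; 42 higher and 66 lower in HT), against 7.67% of all identifiers. Between HT and ST 103 loci were called (2.47%; 37 higher and 66 lower in HT), against 6.38% of all. In a single F test over the 3 regions 163 loci passed (3.91%), against 11.0% of all identifiers, with the highest mean in FC for 55 of them, in ST for 58 and in HT for 50. The median absolute difference between HT and FC was 0.16 on the log2 scale for lincRNA loci and 0.23 for all identifiers. The 163 loci merged into 129 intervals on their strands, so some calls shared sequence. Without the 4 ST arrays named above, 46 loci were called between ST and FC, 99 between HT and ST and 166 over the 3 regions. When slide entered as a fixed block, the counts were 33 for ST-FC, 113 for HT-FC and 94 for HT-ST. Of these, 32, 93 and 72 were also called without the block, so the lists changed more than the totals. Without the ST array of L56, 29 loci were called between ST and FC. In SC mice alone 13 were called between ST and FC and 181 between HT and FC, of which 116 were higher in HT. Among these mice 3 FC arrays lay on slide 1 and 1 on slide 2, and 3 HT arrays on slide 3 and 1 on slide 2. Region and slide can thus hardly be told apart there, which also limits the results of SC mice alone given for single loci below. With the scanner's processed signal in place of the rebuilt values, 49 were higher and 46 lower in ST than in FC, 107 were higher and 108 lower in HT than in FC, and 113 higher and 97 lower in HT than in ST.

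Of the loci called higher in HT than in FC, the one with the largest difference lay at Frem3, a gene for an extracellular matrix protein. A_30_P01032677 (chr8:83210957-83219451, forward strand) had log2 intensities of 5.69 to 7.61 (median 6.11) in FC, 6.02 to 9.22 (median 8.27) in ST and 9.56 to 10.87 (median 10.28) in HT. HT arrays thus lay above all others, and ST spanned most of the distance between the other regions. The HT-FC difference was 4.02 ± 0.31 (SE), or 16.2-fold (limma, adjusted p = 1.20e-09), and the HT-ST difference 2.08 ± 0.33 (adjusted p = 2.67e-05). The latter was 1.63 without the ST array of L54 and 2.90 without that of L56, and in SC mice alone its call was lost (adjusted p = 0.0247). Its 3 probes differed between HT and FC by 3.77, 4.17 and 4.19. The array's own probe for Frem3, which overlaps the locus on the same strand, differed by 4.06.

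A_30_P01022242 (chr8:111669528-111771285, reverse strand) stood at 5.08 to 6.24 (median 5.51) in FC, 6.04 to 7.36 (median 6.88) in ST and 7.96 to 8.56 (median 8.32) in HT, a rise of 6.71-fold from FC to HT (2.75 ± 0.12, adjusted p = 5.13e-13). Its nearest gene on the array was 102764 bp away and differed by -0.06. A_30_P01026088 (chr2:33500594-33501874, forward strand) lay at 4.85 to 5.57 in FC, 4.79 to 6.34 in ST and 7.13 to 8.37 (median 7.85) in HT. It was called higher in HT than in FC (2.58 ± 0.18, adjusted p = 2.47e-10) and than in ST (2.52 ± 0.19, adjusted p = 1.06e-09), and FC and ST overlapped. Of its 3 probes, those shown first and second were well above background on 9 arrays each and gave HT-FC differences of 2.51 and 3.66. The third, well above background on all 23 arrays, gave 1.47 between HT and FC and 1.86 between HT and ST. Its neighbour Lmx1b, which encodes a transcription factor of midbrain neurons and whose probe lies 6414 bp away on the opposite strand, differed between HT and FC by 0.22.

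A_30_P01027299 (chr8:94849929-94870274, reverse strand) belongs to the neighbourhood of Crnde, a noncoding RNA gene next to Irx5. It lay at 4.36 to 5.71 (median 4.97) in FC, where 4 of 7 arrays were well above background, at 5.22 to 6.27 (median 5.68) in ST and at 7.04 to 7.9 (median 7.39) in HT. The HT-FC difference was 2.37 ± 0.17 (adjusted p = 3.29e-10) and the HT-ST difference 1.77 ± 0.18 (adjusted p = 7.08e-08), and the array's Crnde probe, 12 bp away on the same strand, differed by 2.41. The overlapping A_30_P01032788 differed by 1.40 in the same direction. By the same rule A_30_P01020864 (chr10:97196521-97207471, forward strand) was among the loci higher in HT than in ST (1.75 ± 0.20, adjusted p = 3.92e-07). Its 8 arrays on slide 1, which were of FC and ST and none of HT, lay at 9.74 to 10.03, and the arrays on the other slides at 11.72 to 12.83. With the slide as a block its HT-ST difference was 0.57, under the 2-fold threshold.

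The 2 overlapping loci at 1110002E22Rik, a gene known by its RIKEN clone name, had the largest falls from FC to ST and to HT among the called loci. A_30_P01024709 (chr3:137742666-137744470, forward strand) lay at 8.09 to 9.06 (median 8.64) in FC, 5.05 to 7.16 (median 5.76) in ST and 4.03 to 6.15 (median 4.86) in HT. All FC arrays lay above all others, and ST and HT overlapped. It was 7.30-fold lower in ST than in FC (-2.87 ± 0.28, adjusted p = 2.27e-07) and 11.9-fold lower in HT (-3.57 ± 0.24, adjusted p = 2.17e-10), and HT was well above background on 7 of 8 arrays. A_30_P01025862 (chr3:137736327-137752677) read 7.06 to 7.94 in FC, 4.52 to 6.36 in ST and 3.98 to 5.23 in HT. It differed by -2.41 ± 0.22 between ST and FC and -3.23 ± 0.19 between HT and FC (adjusted p = 1.17e-07 and 3.02e-11), with 4 of 8 HT arrays well above background. The array's probe for 1110002E22Rik gave -2.68 and -3.72. In SC mice alone the ST-FC call of A_30_P01024709 was lost.

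A_30_P01033646 (chr11:52463475-52485075, forward strand) lay at 5.34 to 6.29 (median 6.04) in FC and 5.13 to 5.89 (median 5.83) in ST. It was not well above background on any HT array, which under the main processing puts it at least 3.8-fold lower in HT than in FC (adjusted p = 1.26e-10). Under the alternatives to the processing its HT-FC difference ran from -3.64 to -1.15 on the log2 scale, so the bound does not hold under all of them. A_30_P01031970 (chr2:115900355-115900904, forward strand) lay at 8.97 to 11.17 (median 9.25) in FC, 9.42 to 10.58 (median 10.35) in ST and 6.89 to 8.94 (median 7.4) in HT, and was 6.40-fold lower in HT than in ST (-2.68 ± 0.30, adjusted p = 2.92e-07). A_30_P01022502 (chr4:124127144-124334840, reverse strand) stood at 9.48 to 10.49 (median 10.17) in FC, 10.19 to 11.23 (median 11.07) in ST and 7.84 to 8.89 (median 8.24) in HT. Its HT-ST difference was -2.54 ± 0.16 (adjusted p = 7.09e-11), and that of its nearest gene Pou3f1, which encodes a POU-domain factor 137178 bp away on the opposite strand, was -2.36. Within the same interval, loci nearer to Pou3f1 did not follow it. A_30_P01024634 (reverse strand, 3407 bp from Pou3f1) and A_30_P01025799 (forward strand, 3445 bp) differed by 0.14 each and were not called. A_30_P01029264 (chr13:94193230-94193710, forward strand), 11543 bp from the actin regulator gene Jmy, lay at 7.44 to 8.15 in FC, 7.7 to 8.88 in ST and 5.41 to 6.34 in HT. It was 5.23-fold lower in HT than in ST (-2.39 ± 0.12, adjusted p = 6.60e-12), while Jmy differed by -0.28.

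Of the loci called between ST and FC, 4 higher and 4 lower in ST were named by the same rule. A_30_P01019105 (chr8:48480224-48480698, reverse strand) lay at 9.78 to 10.99 (median 10.56) in ST, 7.2 to 9.71 (median 8.72) in FC and 8.06 to 9.33 (median 8.72) in HT, with no overlap between ST and either region. The ST-FC difference was 2.11 ± 0.26 (4.32-fold, adjusted p = 3.94e-06), which was no longer called in SC mice alone, and the 3 probes gave 2.19, 2.17 and 2.22. A_30_P01025851 (chr3:50267902-50431577, forward strand) lay at 8.78 to 9.66 in ST, 6.9 to 7.83 in FC and 7 to 7.35 in HT, a 3.72-fold rise over FC (1.89 ± 0.16, adjusted p = 6.96e-08). A_30_P01018995, a chromosome 18 locus that overlaps a probe of A330094K24Rik, was 3.61-fold higher in ST than in FC (1.85 ± 0.16, adjusted p = 7.67e-08), and A330094K24Rik differed by 2.03. Its arrays read 6.54 to 7.25 in ST, 4.32 to 5.92 in FC and 4.46 to 5.07 in HT. A_30_P01023350 (chr8:80581177-80621652, forward strand), at 7.55 to 8.32 in ST, 5.8 to 7.32 in FC and 5.79 to 6.44 in HT, was 3.05-fold higher in ST than in FC (1.61 ± 0.15, adjusted p = 1.32e-07).

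In the other direction, A_30_P01023900 (chr10:21855725-21867925, reverse strand) lay at 5.49 to 6.42 in FC and 3.87 to 5.4 in ST, where 1 of 8 arrays was well above background and the level was thus mostly at background, and it was called lower in ST (-1.53 ± 0.23, adjusted p = 3.29e-05). In HT no array was well above background. With an offset of 50 in the background correction, and in SC mice alone, this call was lost. A_30_P01021222 (chr17:8718223-8949898, forward strand) was detected on every array and lay at 8.62 to 9.87 (median 9.28) in FC and 7.34 to 8.53 (median 7.73) in ST, a 2.79-fold difference (-1.48 ± 0.17, adjusted p = 1.64e-06) that was not called in SC mice alone.

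**Figure D2:**
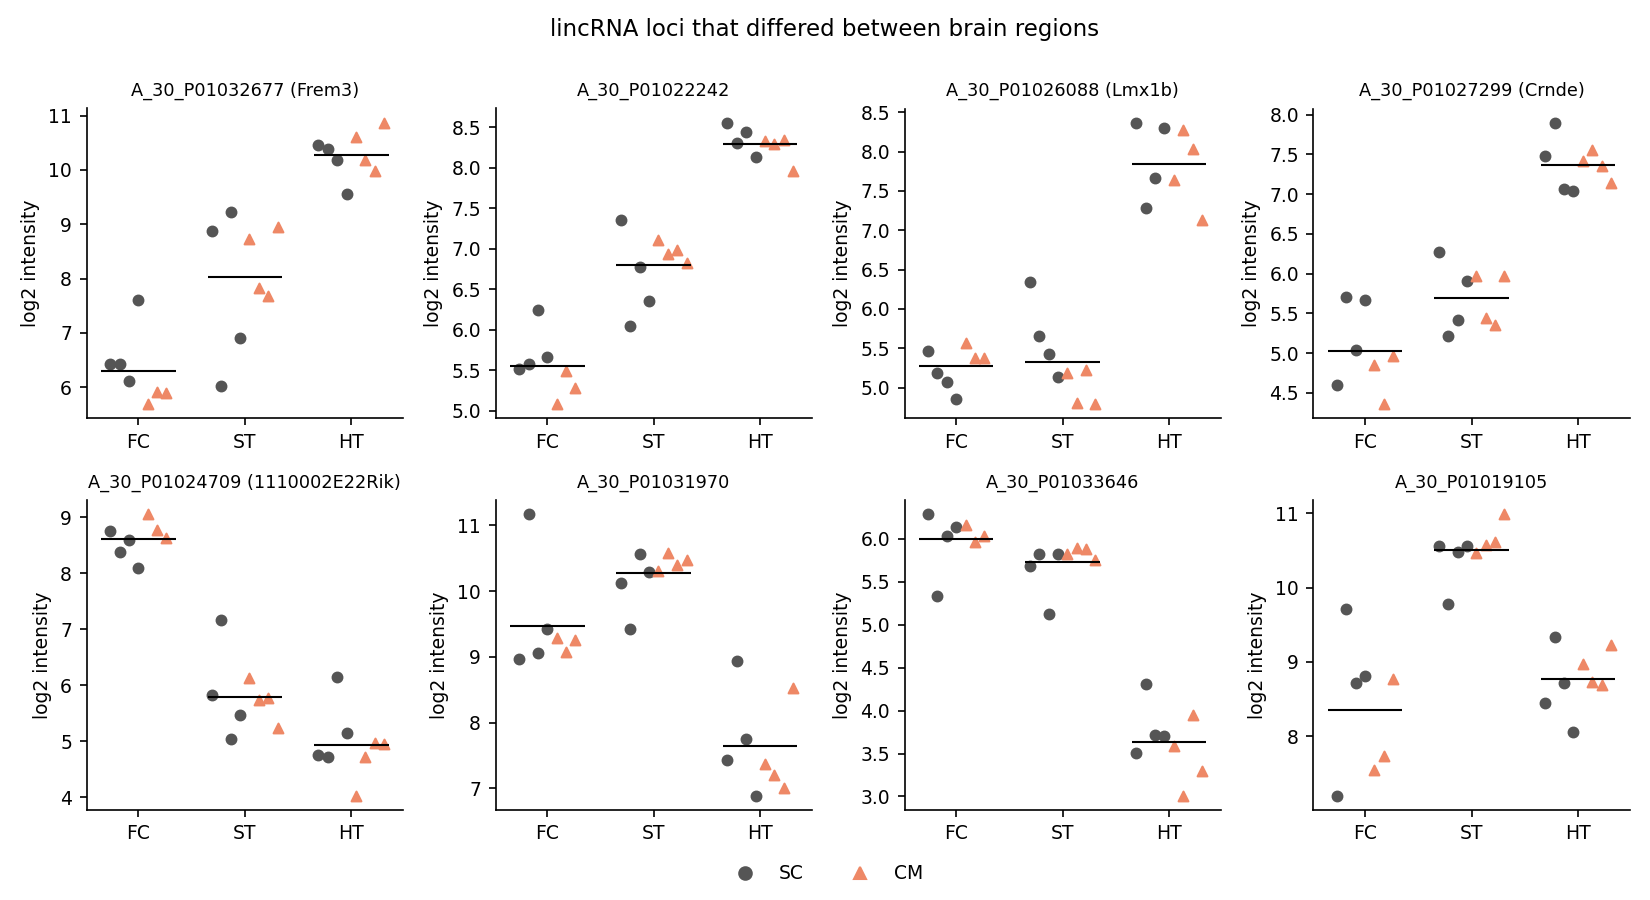
Log2 intensity (y axes, separate scales) of 8 lincRNA loci in FC, ST and HT; each point is an array, circles SC and triangles CM, and lines are region means. In the panels of A_30_P01032677, A_30_P01022242, A_30_P01026088 and A_30_P01027299 every HT array lies above every FC array, and in that of A_30_P01031970 every HT array (6.89 to 8.94) lies below every FC and ST array.

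Among the loci named after known transcripts, those of BRN1-A, NEAT1 and NEAT2 passed the F test with at least a 2-fold range. BRN1-A is the array's name for a transcript of Pantr1 (2610017I09Rik), which lies beside the POU-factor gene Pou3f3. It lay at 12.89 to 13.24 (median 13.19) in FC, 12.81 to 13.25 (median 13.12) in ST and 11.41 to 11.91 (median 11.59) in HT, and the HT-FC difference was -1.54 ± 0.07 (limma, adjusted p = 3.74e-13). Its 4 probes gave -1.56, -1.48, -1.50 and -1.58, and the array's separate probe for the gene -1.55. The ST-FC difference was -0.08 ± 0.08 (adjusted p = 0.443).

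NEAT1 (chr19:5842306-5845476, reverse strand), the scaffold of nuclear paraspeckles, lay at 11.11 to 12.51 (median 11.31) in FC, 12.19 to 13.15 (median 12.47) in ST and 12.47 to 13.2 (median 12.75) in HT. It was higher in ST than in FC by 1.03 ± 0.16 (adjusted p = 5.04e-05) and in HT by 1.22 ± 0.14 (adjusted p = 3.66e-07), and 1 SC FC array reached into the range of both. The separate Neat1 probe gave 0.98 and 1.14. NEAT2 (chr19:5795689-5802671, reverse strand), also known as Malat1, lies on the same strand beside it and had another order. It lay at 10.84 to 11.59 (median 11.37) in ST, 10.5 to 11.16 (median 10.99) in FC and 9.75 to 10.41 (median 9.99) in HT, and the HT-ST difference was -1.25 ± 0.12 (adjusted p = 2.08e-08). The separate Malat1 probe gave -1.36, and A_30_P01028538, a locus of 1 probe whose interval spans NEAT2 on the same strand, -1.24. A further pair of same-strand loci inside the NEAT2 interval was not called. A_30_P01020935 differed between HT and ST by -0.54 (adjusted p = 0.000112) and had its highest mean in FC, and A_30_P01028215 differed by -0.46 (adjusted p = 0.00171).

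XIST (chrX:100655711-100678572, reverse strand), which silences one X chromosome in female cells, differed between HT and ST by -0.77 ± 0.11 on the log2 scale (12.4 to 13.31 in ST, 11.68 to 12.38 in HT). This passed the adjusted p (9.57e-06) but not the 2-fold threshold, and with the slide as a block the difference was -0.42 (adjusted p = 0.0883). TUG1 (chr11:3539796-3547536, reverse strand) was higher in HT than in FC by 0.48 ± 0.07 (adjusted p = 3.94e-06), also under the threshold. Separate probes for TUG1 disagreed, with HT-FC differences of 0.41 and -0.15. KCNQ1ot1, H19, NRON, PINC and lincP21 gave region differences between -0.31 and 0.25, and none was called. The KCNQ1ot1 probes lay on the forward strand, and the array's separate Kcnq1ot1 probe, 41607 bp away, on the other. The locus of this name may thus not measure that transcript. HOTAIR (chr15:102774492-102778161, reverse strand), the antisense RNA of the HoxC cluster, had 1 of 5 probes above the filter, which read 6.12 to 7.31 (FC), 5.94 to 7.24 (ST) and 6.23 to 7.12 (HT). That probe was well above background on all 23 arrays and the other 4 on none. The values given under this name here and below may thus not measure that transcript. TSIX, the antisense partner of XIST, had 0 of 5 probes above the filter.

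**Figure D3:**
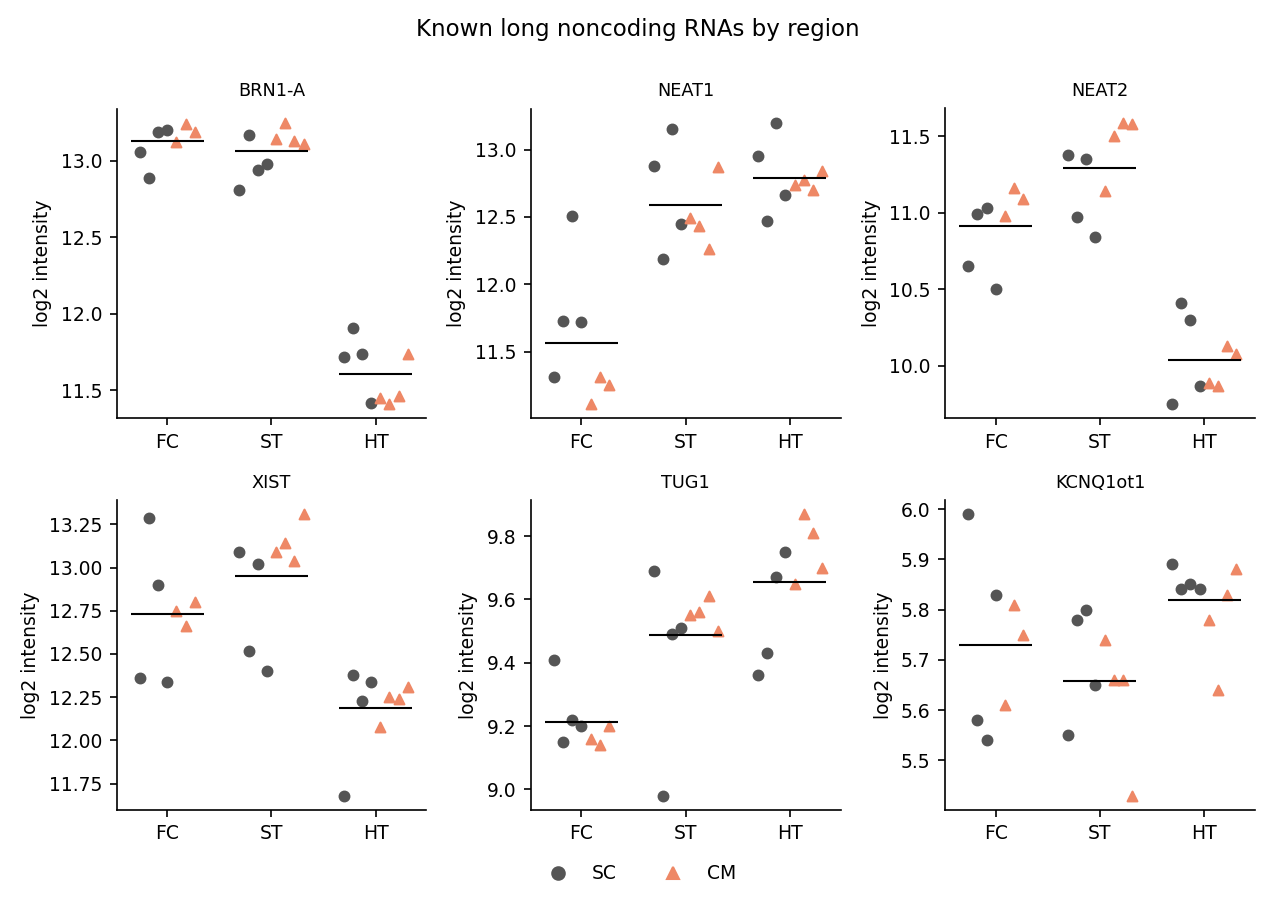
Log2 intensity (y axes, separate scales) of 6 loci named after long noncoding RNAs in FC, ST and HT, with circles for SC and triangles for CM arrays and lines at region means. BRN1-A and NEAT2 are lowest in HT, NEAT1 is lowest in FC, and the regions of KCNQ1ot1 overlap.

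Of 49 known long noncoding RNA genes in a list, 37 had a name on the array, and 83 tested lincRNA loci lay within 50 kb of one of them. Of these 83, 12 passed the F test with a 2-fold range (14.5%, where 11.0% of all identifiers did), with the highest mean in FC for 4 of them, in ST for 3 and in HT for 5. The median range of region means was 0.28 over the 83 loci, 0.27 over all lincRNA loci and 0.36 over all identifiers. Some of the 12 overlapped on the same strand, at Pantr1, Crnde and Malat1. Besides the loci at Pantr1, Crnde, Neat1 and Malat1, they included A_30_P01026715 (chr12:110738120-110769295, reverse strand), 32500 bp from a probe of the imprinted gene Meg3 on the other strand. It lay at 5.37 to 6.07 (median 5.96) in FC, 6.81 to 7.53 (median 7.31) in ST and 6 to 6.51 (median 6.28) in HT, and was higher in ST than in FC by 1.38 (adjusted p = 1.59e-08). Probes of Meg3 itself gave 0.01 and -0.22. A pair of loci near the miR-9 host gene Mir9-3hg, A_30_P01019516 and A_30_P01033596, differed between HT and FC by -1.25 and -1.10 (adjusted p = 1.93e-09 and 1.37e-08), and Mir9-3hg differed by -0.98. A_30_P01017750, 31565 bp from the imprinted snoRNA host gene Snhg14, was higher in HT than in FC by 1.08 (adjusted p = 5.17e-09), where Snhg14 differed by 0.05. On the same strand and within the same interval, A_30_P01029835 and A_30_P01025181 differed by 0.23 and 0.11 and were not called.

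Transcription factors that pattern the brain formed a second list, of 79 genes, of which 18 had a lincRNA locus within 100 kb. Of 42 such loci tested, 12 passed the F test with a 2-fold range (28.6%, where 11.0% of all identifiers and 3.91% of lincRNA loci did), with the highest mean in FC for 6, in ST for 1 and in HT for 5. The median range over the 42 loci was 0.62, against 0.27 over all lincRNA loci and 0.36 over all identifiers. The 12 lay near 9 of the listed genes, and pairs of them near Irx5, Pou3f3 and Mef2c overlapped on the same strand. The loci at Crnde (near Irx5) and Pantr1 (near Pou3f3) are described above. A_30_P01020584 (chr19:59498190-59531390, reverse strand), 1474 bp from a probe of Emx2os and 29938 bp from the cortical factor gene Emx2, lay at 6.64 to 7.1 (median 6.85) in FC, 6.15 to 6.71 (median 6.44) in ST and 4.81 to 5.64 (median 5.47) in HT. Its HT-FC difference was -1.47 (adjusted p = 2.01e-10) and those of Emx2 and Emx2os were -2.39 and -0.56. On the forward strand of the same interval, A_30_P01027488 differed by 0.13.

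A_30_P01018404 and A_30_P01032633 (chr13:83860985-84012285 and chr13:83867711-83878140, forward strand), within 100 kb of the neuronal factor gene Mef2c, were highest in FC. Their HT-FC differences were -1.43 and -1.09 (adjusted p = 3.57e-12 and 4.25e-12), and that of Mef2c was -3.08. A_30_P01028852 (chr13:78370478-78371404, forward strand), 42191 bp from Nr2f1 on the opposite strand, lay at 7.39 to 7.85 in FC, 6.34 to 7.17 in ST and 7.03 to 7.5 in HT. Its ST-FC difference of -1.02 (adjusted p = 9.39e-08) stood beside -1.16 for the nuclear receptor gene Nr2f1. Loci nearer to Nr2f1 differed by -0.62, -0.57 and -0.26 and were not called. A_30_P01024728 (chr7:77555482-77634858, forward strand), 60604 bp from Nr2f2 on the opposite strand, was higher in HT than in FC by 1.53 (adjusted p = 1.3e-08), where Nr2f2 itself differed by 2.54. Nearer loci, 11382 bp from Nr2f2, were not called. A_30_P01020008, on the strand of Nr2f2, differed by 0.34 and A_30_P01023601, on the other, by -0.12. A_30_P01017966, whose probes lie 3082 bp from one for Sox2ot, the transcript that overlaps Sox2, was higher than FC by 1.1 in both ST and HT (adjusted p = 9.48e-06 and 5.03e-07). Its named interval (chr3:34856791-34869544) does not hold its probes. A_30_P01028303 near Otx2 passed as highest in HT, but its arrays on slide 1, all of FC or ST, lay at 10.16 to 11.14 and all others at 12.2 to 13.03.

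Region differences of lincRNA loci followed those of the nearest gene where the probes were close and on the same strand. Of the tested loci, 4156 were paired with the nearest tested gene probe, of a coding or noncoding gene, at a median distance of 24322 bp. A close pair on the same strand can thus be 1 transcript measured by separate probes. Probes of Pantr1, Neat1 and Malat1, for example, lay 0 bp from those of BRN1-A, NEAT1 and NEAT2. Such pairs were neither counted nor left out. For 478 loci within 5 kb and on the same strand, Pearson's r between the HT-FC differences of locus and gene was 0.76. For 369 loci within 5 kb on the opposite strand it was 0.24, for 1984 loci between 5 and 50 kb 0.19, for 1254 loci between 50 and 500 kb 0.20 and for 71 loci farther away -0.10. These are descriptions over loci that share genes, arrays and one normalization, and they carry no test. Of the 22 same-strand loci within 5 kb that were called between HT and FC, 16 had a gene called in the same direction and 0 in the opposite one, while 32 of the 478 had a called gene. On the opposite strand 0 of 4 called loci had a called gene. Between 5 and 50 kb, 7 of 42 called loci had a gene called the same way and 2 the opposite way. Between 50 and 500 kb these counts were 13 and 1 of 32, and beyond 500 kb 1 and 4 of 8. Loci within 5 kb on the same strand were 34.1% of those called between ST and FC and 20.4% of those called between HT and FC, against 11.5% of all tested. Without them 29 loci were called between ST and FC.

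**Figure D4:**
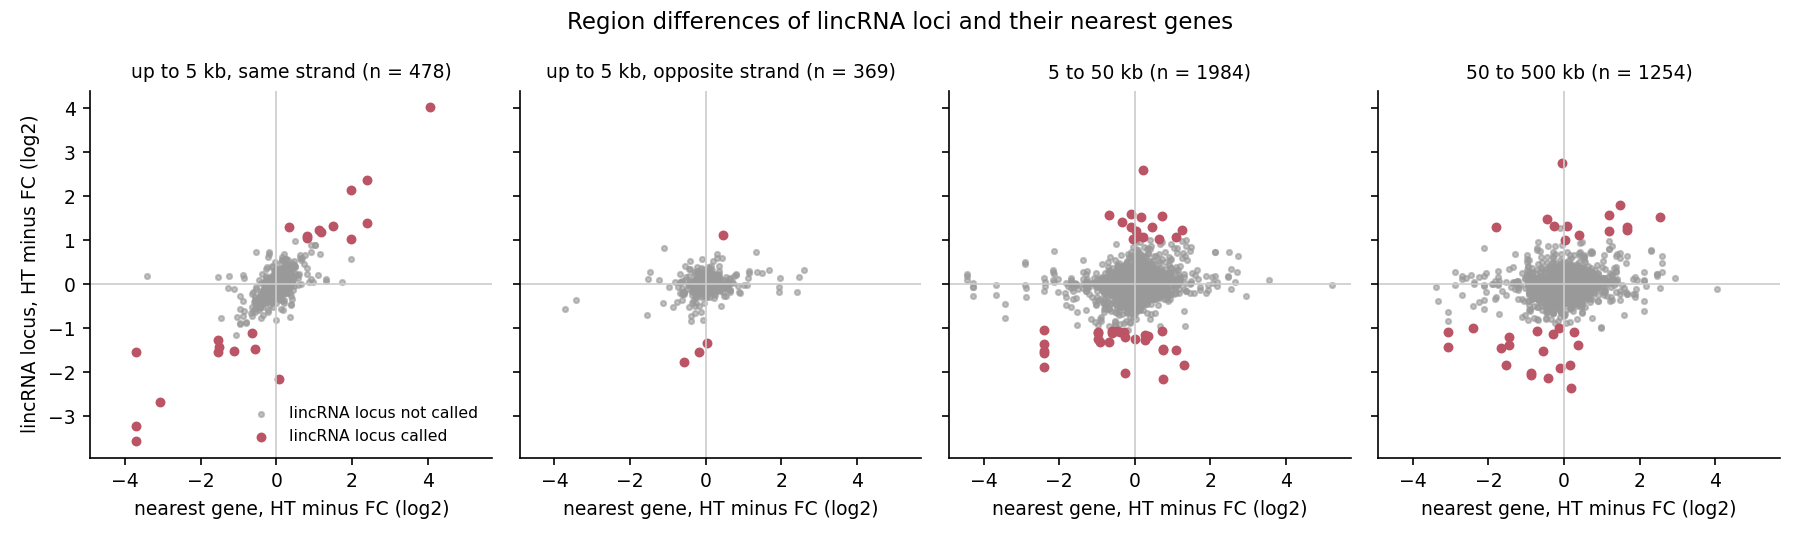
HT-FC difference (log2) of each lincRNA locus (y axis) against that of its nearest gene (x axis), by distance and strand; red points are called loci and grey points loci that were not called. In the same-strand panel (n = 478) the points follow a diagonal (r = 0.757), and in the other panels r is 0.187 to 0.236.

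Some intervals were probed on both strands. Of 1067 such intervals, 925 had both strands tested. Their region differences correlated with r of 0.25 to 0.27 over the 925 intervals (a description, from the same arrays). Of these intervals 52 were called by the F test on at least 1 strand and 1 on both, at chr13:108548345-108679004, where A_30_P01023317 and A_30_P01031432 were both highest in ST. Of the loci called between HT and FC, 84 had several probes above the filter, and in all 84 each probe differed in the direction of the locus, where the call itself was made on the mean of these probes. For ST-FC this held in 33 of 33 and for HT-ST in 79 of 82. Loci called between regions were backed by 1 probe in 11, 24 and 21 cases.

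Between diets, most called loci were higher in CM FC. In FC and ST a call needed 2-fold at an adjusted p under 0.01. By this rule 136 loci (3.26%) were called in FC, 132 higher and 4 lower in CM mice, where 2.94% of all identifiers were called (834 higher, 88 lower). In ST 21 loci were called (0.504%, 0 higher, 21 lower), against 0.602% of all identifiers (1 higher, 188 lower). In HT, where 1.5-fold at an adjusted p under 0.05 was enough, 10 loci were called (0.24%, 0 higher, 10 lower), against 0.178% of all (4 higher, 52 lower). The direction of the calls was thus shared with the rest of the array. With the slide as a fixed block limma called 0 loci in each region, and 132, 194 and 59 passed an unadjusted p under 0.05. In FC no slide held both diets, so a fit could separate diet from slide there only through the other regions, and within FC they cannot be told apart. Over the 132 loci higher in CM FC, the median log2 intensity on slide 3 was 7.12 in CM FC, 6.93 in SC ST and 6.92 in SC HT. On slide 2 it was 6.52 in SC FC, 6.53 in SC ST, 6.34 in SC HT and 6.44 in CM HT, and on slide 1 5.65 in SC FC, 5.65 in SC ST and 5.8 in CM ST. The FC medians follow from the choice of these loci. At 89 of the 136 loci (65.4%) every array of slide 1 lay below every other array, against 344 of all 4167 tested loci (8.26%) and 5 of the 108 called between HT and FC (4.63%). As 3 of the 4 SC FC arrays lay on slide 1, the choice of the 136 loci bears on the first of these shares. At an adjusted p under 0.05 for the difference of diet effects, 1551 loci (37.2%) differed between FC and ST, where 30.1% of all identifiers did, and 1216 (29.2%) between FC and HT, where 6267 of all 31395 did.

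The loci named below were taken from those called where the arrays of the diets shared no part of their range. The largest rise in FC was at A_30_P01018229 (chr12:21380896-21387071, reverse strand), which read 8.66, 8.96 and 8.08 in the CM FC arrays of slide 3 and 4.86, 6.1 and 5.19 in the SC FC arrays of slide 1, and 8.01 in the SC FC array of slide 2. The CM-SC difference was 2.81 ± 0.43 (7.03-fold, adjusted p = 1.37e-04), and 0.40 with the slide as a block. Of the 7 FC arrays, 5 were well above background at this locus, so the fold rests partly on values at background. In ST its SC arrays read 5.42 on slide 1 and 7.47 to 8.06 on the other slides, and the CM arrays of slide 1 4.69 to 5.8. It was called there in the other direction (-2.20, adjusted p = 0.00839), with overlapping diets. A_30_P01024198 (chr14:30758342-30759669, reverse strand) read 10.21, 10.51 and 10.15 in CM FC and 7.82 to 8.4 in SC FC, a difference of 2.38 ± 0.21 (adjusted p = 1.07e-05), and 1.04 with the block (adjusted p = 0.454). Its slide 3 arrays of SC mice, 9.26 in ST and 9 to 9.33 in HT, lay below those of CM FC. A_30_P01019416 (chr1:138518674-138521227, reverse strand) read 9.05 to 9.21 in CM FC and 6.53 to 7.98 in SC FC, a difference of 2.22 ± 0.27 (adjusted p = 3.25e-05), which turned to -0.21 with the block. Each of these calls rested on 1 probe above the filter.

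Of the 4 loci that fell in CM FC, A_30_P01022510 (chr10:96103732-96103867, forward strand) read 6.13 to 6.36 in CM and 6.78, 9.01, 7.51 and 7.27 in SC mice (-1.44 ± 0.24, adjusted p = 2.96e-04). In ST it read 6.26 to 6.75 in CM and 6.86 to 7.4 in SC mice, and in HT 6.75 to 7.06 and 7 to 7.7, and it was called in neither. A_30_P01018995, the striatal locus above, read 4.32, 4.45 and 5.1 in CM FC and 5.4 to 5.92 in SC FC (-1.02 ± 0.21, adjusted p = 1.37e-03). A_30_P01030848 (chr7:48794017-48815817, reverse strand) read 3.17 to 4.11 in CM FC, with 2 of 3 arrays well above background, and 4.79 to 5.25 in SC FC (-1.13 ± 0.26, adjusted p = 3.29e-03). With the slide as a block these differences were -0.63, -0.85 and -0.37, and none was called.

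In ST, A_30_P01024622 (chr9:34192364-34192810, reverse strand) read 5.25 to 5.63 in CM mice, all on slide 1, and 5.69 on slide 1, 6.98 and 6.52 on slide 2 and 7.23 on slide 3 in SC mice (-1.14 ± 0.21, adjusted p = 4.84e-03). Over all regions its slide 1 arrays (FC and ST) read 5.25 to 5.69, its slide 2 arrays 6.52 to 6.98 and its slide 3 arrays 7.23 to 7.55. A_30_P01031184 (chr4:15230638-15231187, forward strand) had the same order in ST, with 5.76 to 6.07 in CM mice and 6.18 on slide 1 and 6.92 to 7.36 elsewhere in SC mice (-1.02 ± 0.17, adjusted p = 4.32e-03). At A_30_P01022814 (chr8:35650475-35664200, forward strand) the CM ST arrays read 9.29 to 9.64 and the SC ST array of the same slide 10.53, a gap of -1.05, beside -1.0 ± 0.19 over all ST arrays (adjusted p = 5.04e-03). That SC array was L52, which carried the hypothalamic genes, while the SC FC arrays of slide 1 read 9.29, 9.57 and 9.77, and with the slide as a block the ST difference was -0.50. Over the 21 called ST loci the median difference was -1.26 over all arrays and 0.03 within slide 1, where 4 CM arrays met 1 SC array, and 9 of 21 kept their sign. Without the 4 ST arrays with genes of other tissue, 27 loci were called, but not the 3 named here (adjusted p = 0.0162, 0.0101 and 0.0529). The SC group then held 1 array, L56, which the fit assumed to vary like the other groups, against 3 CM arrays.

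In HT, A_30_P01033077 (chr12:52945074-52945874, reverse strand) read 6.23 to 6.39 in CM mice and 7.1, 7.07, 6.93 and 6.51 in SC mice, the last on the slide of the CM arrays (-0.62 ± 0.10, adjusted p = 2.12e-02). A_30_P01024377 (chr4:3406175-3443875, forward strand) read 4.88 to 5.15 in CM and 5.45 to 6.08 in SC mice (-0.62 ± 0.09, adjusted p = 1.08e-02), and within slide 2 the gap was -1.09. HOTAIR read 6.23 to 6.43 in CM and 6.55 to 7.12 in SC mice (-0.60 ± 0.13, adjusted p = 4.57e-02), with a gap of -0.23 within slide 2. In FC it differed the other way, 6.89 to 7.31 in CM and 6.12 to 6.56 in SC mice (0.77 ± 0.16), where it missed the 2-fold threshold. Over all regions, HOTAIR read 6.74 to 7.31 on the slide that held the CM FC arrays and 5.94 to 6.74 on the other slides. With the slide as a block its CM-SC differences were -0.05 in FC and -0.10 in HT. Its HT call was kept in 10 of the 23 fits that each left out 1 array. Over the 10 called HT loci the median difference was -0.63 over all arrays and -0.18 within slide 2, where 4 CM arrays met 1 SC array, and 8 of 10 kept their sign. The calls in ST and HT moved by over 1.5 times when single libraries were left out. For ST they ranged from 0 without O54 to 53 without L52, and were 2 without L58, 7 without O58, 38 without L54 and 40 without L56. For HT they ranged from 0 without O54 to 35 without L58, and were 1 without L54 and without L56 and 17 without L52 (HT arrays), and 6 without the FC or the ST array of L54.

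**Figure D5:**
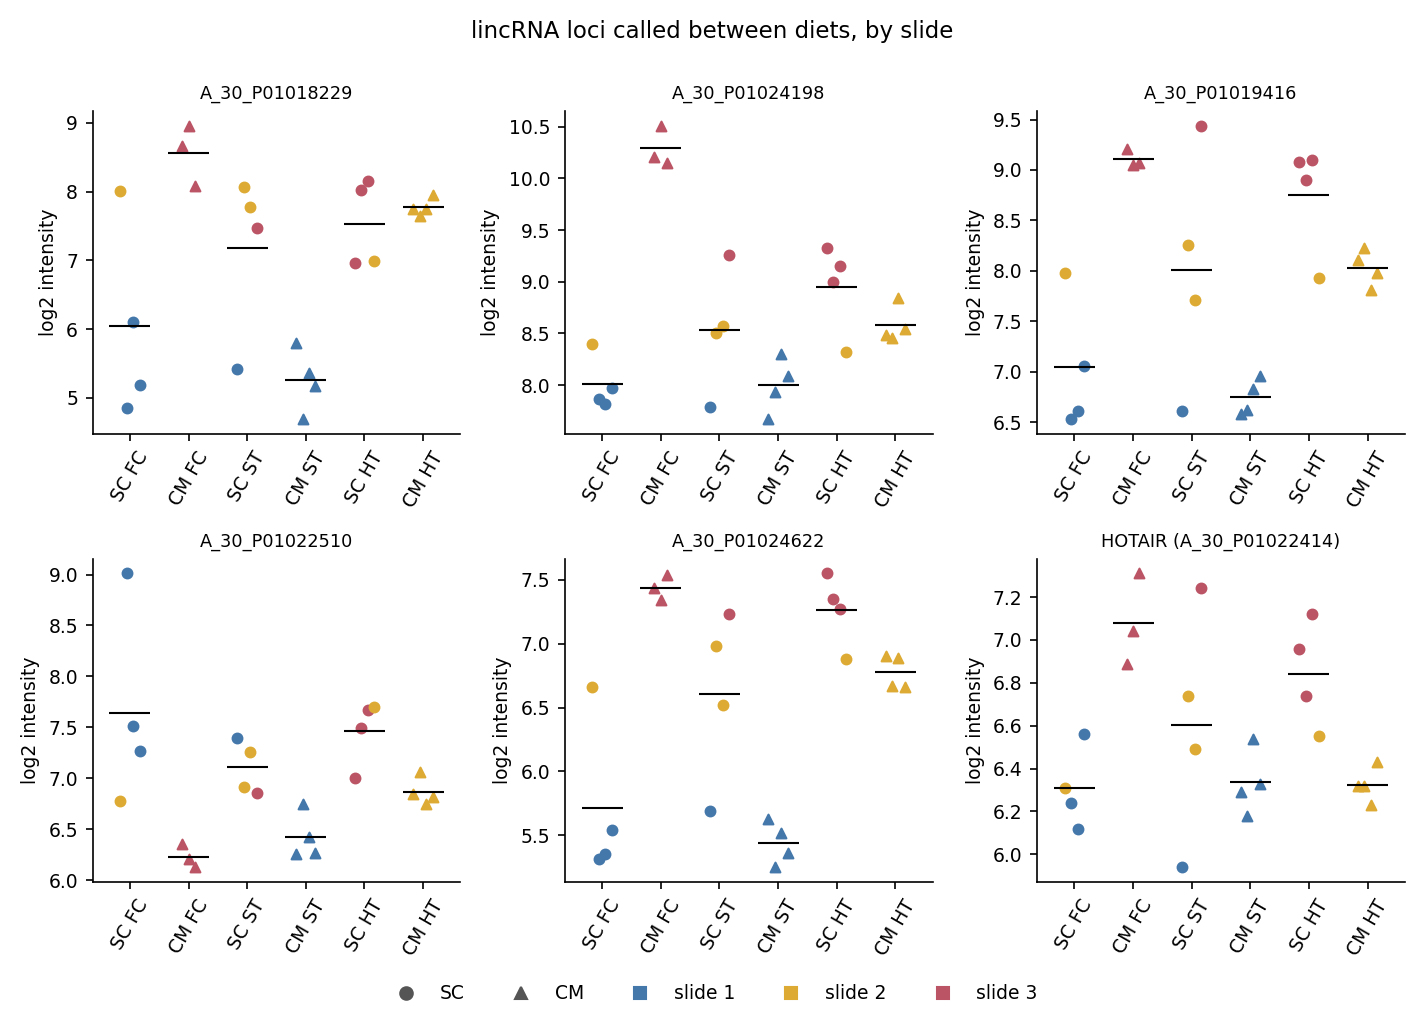
Log2 intensity (y axes, separate scales) of 6 lincRNA loci called between diets, by diet and region; circles are SC and triangles CM arrays, colours are slides and lines are group means. In the upper panels slide 1 arrays, which are of FC and ST, are low, and at A_30_P01024622 the slides lie at 5.25 to 5.69, 6.52 to 6.98 and 7.23 to 7.55.

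Loci called between diets differed in make-up from those called between regions. A single probe had passed the filter at 87 of the 136 FC loci (64%), 12 of the 21 ST loci and 7 of the 10 HT loci, against 24 of the 108 loci called between HT and FC (22.2%) and 1136 of all 4167 tested (27.3%). Where several probes had passed, they differed in one direction at 48 of 49 FC loci, 9 of 9 ST loci and 3 of 3 HT loci, where again the calls used their mean. Loci within 5 kb of a gene on the same strand were 2.94% of the FC calls and 0 of the ST and HT calls. Of the FC and ST calls 13 loci were shared (9.56% and 61.9% of each list), of the FC and HT calls 4 (2.94% and 40% of each), and of the ST and HT calls 0. The 13 and the 4 shared loci were all higher in CM mice in FC and lower in CM mice in the other region. Of the 83 tested loci near known long noncoding RNA genes, 0 were called between diets in any region, and of the 42 near patterning factors 3 were called between diets in FC, 1 in ST and none in HT (0), beside 2.94%, 0.602% and 0.178% of all identifiers.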

How the data were processed

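RNA from frontal cortex, striatum and hypothalamus was hybridised to one-colour (Cy3) arrays, 1 array per mouse and region. The authors deposited scanner files from Feature Extraction 10.7.3.1 with median spot intensity on a linear scale. The authors also deposited a table of log2 values, which holds background-corrected, quantile-normalised and filtered data averaged per transcript identifier. This table was rebuilt from the intensities in limma 3.58.1 (R 4.3.3, statmod 1.5.0) with normexp correction (offset 0) and quantile normalization. A probe was kept when, on 4 or more arrays, it exceeded the negative controls' 95th percentile (308 spots) by a factor of 1.1 on the log2 scale, and the rebuilt values matched the deposited ones within 5e-09. The filter left out 455 of the 4622 loci. Every array was scanned once, and the number of arrays, not read depth, limits precision.

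The 6 group means were fitted with array weights (0.222 to 2.74) and a random block for the mouse, whose correlation was -0.0398. Variances were moderated by empirical Bayes, and p-values were adjusted by Benjamini-Hochberg over 31395 identifiers. A difference between regions averages the diets. The scripts were tested on simulated data. Loci named are, for each pair of regions, the 4 largest differences in each direction among called loci whose arrays did not overlap and whose brighter region was well above background on every array. For each diet contrast they are the 3 largest rises and falls among called loci without overlap. Called loci near listed long noncoding RNA genes (within 50 kb) and the called locus with the largest range for each listed transcription factor (within 100 kb) were added, and a few loci outside this rule were named after their values were seen. A locus that this rule selects is not reported here, but it stays in the counts. A bound ("at least") sets the bright group's mean against the dimmest signal well above background of any probe on the array, or the locus's own value where that is higher. It is not a detection limit of the probe itself and holds for the main processing only. The loci, the lists and the tests were chosen with earlier results of these data known. Positions are those of the array files (mm9), distances run from probe to probe, and gene names were updated through RefSeq synonyms. Levels of different probes were not compared. Per-array and per-probe values, slides, and alternatives to the background correction, scaling, filter, weights and blocks were also computed. The same number in lean and obese mice names different animals. Same-numbered SC and CM arrays of a region deviated from their group means with correlations of -0.073 to 0.121 in FC, -0.115 to 0.127 in ST and -0.321 to 0.136 in HT, so the numbers were not taken as pairs.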

Additional observations from a re-analysis of the deposited data

Results flagged for a closer look

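Among 210 checks of a single array against the others of its group (41 loci, and the detection shares), 8 values stood apart, where about 1 in 20 would by chance. The value given is the array's gap to its nearest neighbour divided by the range of the group. In SC FC, L52 stood apart at A_30_P01020864 (0.896, 12.27 against 9.77 to 10.03) and at A_30_P01031484 (0.978, 6.43 against 5.63 to 5.65), and it was the SC FC array that did not lie on slide 1. L58 stood apart at A_30_P01030848 in SC FC (0.866, 5.25 against 4.79 to 4.85). In SC ST, L54 was low at A_30_P01019105 (0.899, 9.78 against 10.48 to 10.56), L52 high at A_30_P01030848 (0.857, 5.35 against 4.2 to 4.37) and L58 high at A_30_P01033077 (0.86, 7.18 against 6.24 to 6.37). L58 was the one SC ST array on slide 3, and over all groups the slide 3 arrays read 6.85 to 7.18 at this locus and the others 6.08 to 6.51. L54, L52 and L58 are among the ST arrays that carried genes of other tissue, whose part in these values was not tested. In CM HT, O58 stood apart at A_30_P01022242 (0.877, 7.96 against 8.3 to 8.35) and at BRN1-A (A_30_P01024930, 0.856, 11.74 against 11.41 to 11.46), each time nearer to the FC arrays.

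The effect of diet differed between FC and the other regions at many loci. At an adjusted p under 0.05 for the difference of effects in limma, 1551 loci (37.2%) differed between FC and ST, 1216 (29.2%) between FC and HT and 0 between ST and HT, against 9454, 6267 and 0 of all 31395 identifiers (579 loci between ST and HT at an unadjusted p under 0.05). With slide as a fixed block the counts were 0, 0 and 0 (100, 55 and 61 at an unadjusted p under 0.05), and since each CM group lay on a single slide, diet by region and slide cannot be told apart. Differences of the diet effect, FC minus ST and FC minus HT, follow for the loci named between diets. These loci were chosen for a large diet difference in 1 region, which often enters the differences given here. Their adjusted p-values thus follow in part from the choice and are given as a description. They were 5.01 and 2.79 at A_30_P01018229 (adjusted p = 2.19e-05 and 0.00201). A_30_P01024198 gave 2.91 and 2.8 (adjusted p = 1.13e-05 and 2.09e-05), and A_30_P01019416 gave 3.38 and 3.06 (adjusted p = 1.45e-05 and 2.64e-05). The values were -1.05 and -1.16 at A_30_P01030848 (adjusted p = 0.0489 and 0.0231) and -0.9 and -0.83 at A_30_P01018995 (adjusted p = 0.0378 and 0.0409), while A_30_P01022510 gave -0.71 and -0.81 (adjusted p = 0.152 and 0.0834). A_30_P01024622 gave 3.01 and 2.37 (adjusted p = 1.13e-05 and 2.09e-05), A_30_P01031184 gave 1.84 and 0.82 (adjusted p = 1.98e-05 and 0.00912), and A_30_P01022814 gave 1.57 and 0.43 (adjusted p = 0.000181 and 0.194). For the loci named in HT, A_30_P01033077 gave 0.98 and 1.42 (adjusted p = 0.000704 and 2.64e-05), A_30_P01024377 gave 0.9 and 1.11 (adjusted p = 0.000315 and 3.85e-05), and HOTAIR gave 0.98 and 1.37 (adjusted p = 0.00398 and 0.000156).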

How the results depend on the processing

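Counts are of lincRNA loci called, in the order ST-FC, HT-FC and HT-ST for regions (44, 108 and 103) and FC, ST and HT for diets (136, 21 and 10), and the causes of shifts were not tested. With an offset of 50 the region counts were 22, 56 and 45, the F test gave 84 and the HT diet count was 18. With the scanner's processed signal they were 95, 215 and 210, the F test gave 338 and the diets 611, 57 and 16. With 1 value per probe in place of 1 per locus, so that more features were tested, they were 177, 411 and 391, the F test 638 and the diets 636, 92 and 70. In SC mice alone, with fewer arrays and with FC and HT mostly on different slides, ST-FC gave 13 and HT-FC 181. Without loci within 5 kb of a gene on the same strand, a choice made after seeing the data, ST-FC gave 29. The diet counts were 0, 0 and 0 with slide as a fixed block, where A_30_P01019416 turned to -0.21, and 34, 0 and 0 with slide as a random block. They were 48, 0 and 0 without array weights and 37, 0 and 0 without the filter. With 75th percentile scaling ST gave 34 and HT 28, with a filter on detection HT gave 27, and with only the arrays compared ST and HT gave 0 and 0. The shared number as a replicate block gave 137, 0 and 3, and the mouse as a fixed replicate block 43, 107 and 102 for regions. Leaving out each array in turn gave 29 to 48 for ST-FC, 107 to 114 for HT-FC, 97 to 106 for HT-ST and 154 to 171 for the F test, and for the diets 110 to 190 in FC, 0 to 53 in ST and 0 to 35 in HT. Of 1324 values of loci selected by the naming rule, under the alternatives and the fits that each left out 1 array, 1215 kept direction and call, 108 lost the call and 1 changed direction. These totals pool region and diet differences, which did not fare alike. With slide as a fixed block 23 of 24 region values and 0 of 12 diet values kept their call. Without array weights these were 24 of 24 and 2 of 12, and with only the arrays compared 24 of 24 and 3 of 12. With 1 value per probe they were 24 of 24 and 11 of 12. Of the 16251 probes, 4725 were not well above background on any array, and nothing can be said of their differences.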
